A study of Mus musculus with 10 samples.

Results

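The genes described here are 10 enzymes that make phosphatidylcholine and phosphatidylethanolamine, followed in cultured mouse hepatocytes. They were taken by gene symbol from the deposited tables, and all 10 were found among 56748 genes (Pemt, Pcyt1a, Pcyt2, Chka, Chkb, Chpt1, Cept1, Etnk1, Pisd and Lpcat3). Primary hepatocytes of wild-type mice were kept overnight in medium taken from adipocytes, and their poly-A RNA was sequenced. Group Mttp_flox_CM (5 libraries) received medium of adipocytes from Mttpf/f mice, and group Mttp_KO_CM (5 libraries) received medium of adipocytes from A-Mttp-/- mice, which have an adipose-specific loss of Mttp. The product of Mttp, microsomal triglyceride transfer protein, lipidates apolipoprotein B. The fat donors were male, had eaten an obesogenic diet for 6 months, and are given as 3 mice. Their adipocytes were not mature fat cells taken from the animal: they were differentiated in culture from stromal vascular cells of the inguinal depot, with a cocktail that contained rosiglitazone and dexamethasone in both groups, and were starved overnight before the medium was collected. The sources used here do not give the promoter that drove the adipose deletion or the age of the mice. The hepatocytes were wild type in both groups, which differ in the origin of the medium.

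Phosphatidylcholine and phosphatidylethanolamine are the main phospholipids of cell membranes, and both are built by parallel routes in which choline or ethanolamine is phosphorylated, coupled to cytidine diphosphate and joined to diacylglycerol. Liver has a further route, in which the enzyme encoded by Pemt methylates phosphatidylethanolamine to phosphatidylcholine, and mitochondria make phosphatidylethanolamine by removing a carboxyl group from phosphatidylserine. In hepatocytes phosphatidylcholine covers lipid droplets and very low density lipoprotein and is secreted into bile, and Lpcat3 sets how much polyunsaturated fatty acid its molecules carry.

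Of the 10 enzymes, Lpcat3 and Pcyt2 rose in knockout medium, Pcyt1a fell, and the other 7 did not pass the test. Lpcat3 was 1.62-fold higher, while the changes of Pcyt2 and Pcyt1a were 1.11-fold up and 0.879-fold. The test was edgeR's quasi-likelihood test on counts, with p-values adjusted by Benjamini-Hochberg over 14183 genes and a threshold of 0.05. The 3 calls are 30.0% of the enzymes, where 36.4% of all genes tested were called (18.2% higher and 18.1% lower), so the share called among the enzymes lies near the background. The median log2 change of the 10 was 0.11, against 0.0012 for all genes tested. The fat donors are given as 3 mice, and there are 5 libraries per group. No label states that libraries of 1 group are from different cultures or animals. The p-values therefore reflect the spread among these libraries alone, and that spread may be technical.

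Libraries held 14199798 to 17178131 counts. Scaling by TMM (trimmed mean of M values) left 50.1% of all called genes on the higher side, and library size alone 38.1%. CPM of single genes below are counts relative to this TMM-scaled library size. Summed levels of marker lists are CPM relative to library size alone. Hepatocyte markers were abundant in every library, with a summed level of 63356 to 66366 CPM in Mttp_flox_CM and 49981 to 51937 in Mttp_KO_CM, and 10 of 12 were lower in Mttp_KO_CM. Of the other 2 hepatocyte markers, Tdo2 rose 1.93-fold and Apoa2 1.06-fold (edgeR adjusted p = 3.6e-14 and 0.046). Markers of other liver cells were present too, and most of those tested fell in knockout medium. All 14 markers of liver endothelial cells fell (summed level 2550 to 2742 and 1399 to 1493 CPM), as did 10 of 12 of stellate cells and fibroblasts (329 to 352 and 231 to 246), 11 of 12 of macrophages (958 to 1063 and 666 to 756; the twelfth, Cd68, rose by 0.13 on the log2 scale) and 4 of 7 cholangiocyte markers tested (577 to 640 and 314 to 378). No marker of these 4 lists was at 0 in all libraries. Of 8 adipocyte markers the 3 tested rose (Fabp4, Cidea and Lipe; summed level of the list 103 to 117 and 124 to 136 CPM), Lep and Cfd were at 0 in all libraries, and Adipoq had at most 2 counts. Of 8 markers of lymphocytes and neutrophils, 2 were tested and neither passed (2.28 to 3.38 and 2.10 to 3.01 CPM for the list), and Nkg7 was at 0. The part of these cells in the changes below was not tested, and in these bulk samples fewer cells of a type and less RNA per cell cannot be told apart.

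The upstream sequences of Lpcat3 and Pcyt1a are shown first, because these are the 2 enzymes whose libraries did not overlap between the media. RefSeq entries (build GRCm38.p6) matched 9 of the 10 enzymes, and Pcyt2 was the one not matched. Shown are the bases before the first annotated start, 5′ to 3′ on the gene's strand, from chr6:124662854-124663026 (plus strand) for Lpcat3 and chr16:32430671-32430920 (plus strand) for Pcyt1a. Capitals mark matches on either strand to the GC box GGGCGG, to the CCAAT box CCAAT and to the sterol-response sequence TCACNCCAC.
Lpcat3: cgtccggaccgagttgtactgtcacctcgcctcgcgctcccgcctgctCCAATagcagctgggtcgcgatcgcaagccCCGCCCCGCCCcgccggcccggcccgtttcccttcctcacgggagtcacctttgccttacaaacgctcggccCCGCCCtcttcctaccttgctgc
Pcyt1a: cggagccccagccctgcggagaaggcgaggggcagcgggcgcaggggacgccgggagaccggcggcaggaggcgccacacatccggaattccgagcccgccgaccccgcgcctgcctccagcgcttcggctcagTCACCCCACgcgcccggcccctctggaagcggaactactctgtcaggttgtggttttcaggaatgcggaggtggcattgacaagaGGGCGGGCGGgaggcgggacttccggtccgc

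Both stretches are rich in G and C (68.8% of 173 bases for Lpcat3 and 71.6% of 250 bases for Pcyt1a). Lpcat3 held 3 GC boxes, 2 of them overlapping by 1 base, and 1 CCAAT box. The window of Lpcat3 was cut at an annotated GENCODE start that lies before its RefSeq start. Among 32851 RefSeq promoters, 19.9% held a GC box and 23.8% a CCAAT box in a window of that length, placed alike relative to the RefSeq start. In the full 250 bases before its RefSeq start Lpcat3 held 5 GC boxes and 3 CCAAT boxes. Over 250 bases, 32.7% of promoters held at least 1 GC box and 33.8% a CCAAT box. Pcyt1a held 2 overlapping GC boxes, and 32.7% of promoters held at least 1 in a window of its length. It also held 1 sterol-response match, found in 1.05% of promoters and marked after it was seen. The nuclear receptor repeats DR1 and DR4 were searched for too and had no match in either window; in the shorter window 0.0213% and 0.0122% of promoters held them. Of 4 further motifs, none matched either window: the half-sites AGGTCA and GGGTCA, the E-box CACGTG and the site of NRF1, held by 14.02%, 11.6%, 6.02% and 0.782% of promoters over 250 bases. These matches describe letters only.

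Levels are compared between genes on the FPKM scale, which divides by gene length. In Mttp_flox_CM the highest level was that of Lpcat3 (71.4 ± 2.16 FPKM, SD, n = 5), followed by Pcyt2 (40.2 ± 1.72) and Chka (28.3 ± 1.02). Pcyt1a (25.01 ± 0.638) and Cept1 (24.9 ± 0.778) came next and overlapped each other. Below them were Etnk1 (10.5 ± 0.237), Pemt (6.24 ± 0.811), Chpt1 (3.48 ± 0.236) and Pisd (3.17 ± 0.316), the last pair overlapping. Chkb was listed at 0.253 ± 0.0733 FPKM. Lpcat3 lay at the 96.9th percentile of FPKM among genes tested and Pemt, an enzyme found chiefly in liver, at the 56.8th.

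In Mttp_KO_CM the order was the same but for one exchange. Cept1 (25.05 ± 1.48 FPKM) stood above Pcyt1a (22.0 ± 0.811), with no overlap between their libraries, and Chpt1 and Pisd still overlapped. The level of Cept1 is partly uncertain, because another gene overlaps it, as described below. The summed FPKM of the 10 enzymes was 214 ± 3.24 in Mttp_flox_CM and 263 ± 8.87 in Mttp_KO_CM, and Lpcat3 made up 33.4 ± 0.769% and 43.9 ± 0.849% of it. The plot of FPKM by library shows these levels.

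**Figure D1:**
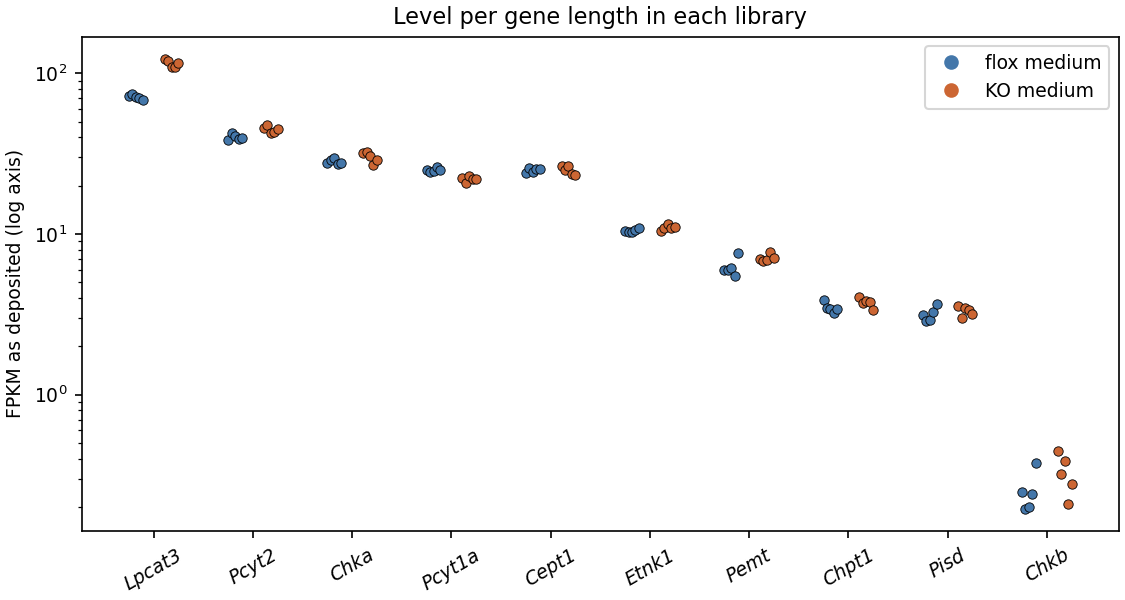
Deposited FPKM of each enzyme (log axis), with 1 point per library, flox medium in blue and knockout medium in orange, ordered by the mean in Mttp_flox_CM. Lpcat3 lies highest in both groups, and Chkb lies below 0.5 FPKM in all 10 libraries.

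Choline kinases open the choline route by phosphorylating choline. Chka (ENSMUSG00000024843, chromosome 19 from 3901773 to 3944369, plus strand, GRCm39 as in all gene positions here), which encodes choline kinase alpha, had 335, 349, 362, 332 and 335 CPM in Mttp_flox_CM. The 5 values of a group are given for replicates 1 to 4 and then for a library whose number no label gives, called the unnumbered library. In Mttp_KO_CM Chka had 388, 391, 368, 327 and 350 CPM. The groups overlapped: replicate 4 of Mttp_KO_CM lay below every Mttp_flox_CM library, and the unnumbered library of Mttp_KO_CM lay below replicate 3 of Mttp_flox_CM. The log2 change was 0.09 (edgeR adjusted p = 0.072, SE 0.039), with a 95% interval of 0.011 to 0.17. Chka passed without replicate 4 of Mttp_KO_CM (log2 0.13, edgeR adjusted p = 0.0053), without replicate 3 of Mttp_flox_CM (log2 0.11, adjusted p = 0.045) and with no filter on low counts (log2 0.086, adjusted p = 0.028). It also passed with a replicate block over the 4 numbered pairs (log2 0.092, edgeR adjusted p = 0.046).

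Chkb (ENSMUSG00000022617, chromosome 15 from 89310563 to 89314111, minus strand), the beta kinase, had 9 to 17 counts per library in Mttp_flox_CM and 10 to 21 in Mttp_KO_CM. Its log2 change was 0.38 (edgeR adjusted p = 0.33, SE 0.29), and the 95% interval ran from -0.21 to 0.97, so a change of either sign was within it at these counts. These counts are an uncertain measure of Chkb. The gene model Gm44502, on the same strand from 89300608 to 89313899, covers 94.0% of its span and is listed at 0 in all 10 libraries. On the other strand C730034F03Rik overlaps 320 bases of Chkb and had 0 to 16 counts. In the GENCODE M21 transcripts (build GRCm38), 42.8% of the 50-base words of Chkb also occur in Gm44502. How reads that match more than 1 gene were counted is not given in the sources used here. Chka made up 99.1 ± 0.274% of the FPKM of the 2 kinases in Mttp_flox_CM and 98.9 ± 0.248% in Mttp_KO_CM, shares that carry the same doubt.

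Pcyt1a encodes CTP:phosphocholine cytidylyl transferase alpha, the rate-limiting enzyme of the choline route. Pcyt1a (ENSMUSG00000005615, chromosome 16 from 32249739 to 32293888, plus strand) had 186, 183, 184, 194 and 185 CPM in Mttp_flox_CM. In Mttp_KO_CM it had 166, 154, 171, 164 and 164 CPM. Every Mttp_KO_CM library lay below every Mttp_flox_CM library, a separation in either direction that 25.7% of all genes tested showed and, among the 10 enzymes, Pcyt1a and Lpcat3. Pcyt1a fell by 0.19 on the log2 scale (edgeR adjusted p = 4.1e-05, SE 0.032). Most hepatocyte markers and most tested markers of other liver cells fell in the same libraries, and their part in it was not tested. The fall passed under all 18 alternatives, with log2 changes from -0.23 to -0.17. Slc51a, which overlaps Pcyt1a on the other strand, had 1 to 7 counts per library. Its paralogue Pcyt1b, the beta form, had at most 5 counts in any library and was not tested.

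Pcyt2 encodes the cytidylyl transferase of the ethanolamine route, whose product is CDP-ethanolamine. Pcyt2 (ENSMUSG00000025137, chromosome 11 from 120500913 to 120508762, minus strand) had 168, 187, 179, 172 and 173 CPM in Mttp_flox_CM and 199, 208, 186, 188 and 197 CPM in Mttp_KO_CM. Only replicate 2 of Mttp_flox_CM, at 187 CPM, lay above a Mttp_KO_CM library, replicate 3 at 186 CPM. Pcyt2 rose by 0.15 on the log2 scale (edgeR adjusted p = 0.0012, SE 0.035). The rise passed under all 18 alternatives, with log2 changes from 0.11 to 0.17.

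In the test on scaled counts, the 2 cytidylyl transferases moved in opposite directions. A ratio within each library needs no scaling between libraries, but shows only how 1 gene changed relative to the other. Pcyt2 over Pcyt1a, in FPKM, was 1.53, 1.75, 1.67, 1.51 and 1.59 in Mttp_flox_CM. In Mttp_KO_CM it was 2.05, 2.30, 1.85, 1.96 and 2.05. The groups did not overlap, and the mean log2 ratio was 0.34 higher in Mttp_KO_CM. It is 1 of 10 such ratios, which were chosen after the levels had been seen and are given with no test.

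The last step joins the activated head group to diacylglycerol. Cept1 (ENSMUSG00000040774, chromosome 3 from 106409576 to 106455118, minus strand) encodes an enzyme that accepts choline and ethanolamine, and its level lay within a narrow range. It had 75.2, 80.5, 76.1, 79.0 and 79.9 CPM in Mttp_flox_CM and 82.7, 78.0, 83.8, 74.3 and 73.6 CPM in Mttp_KO_CM. Both the highest and the lowest library were of Mttp_KO_CM, so the groups overlapped. The log2 change was 0.0066 (edgeR adjusted p = 0.93, SE 0.042), with a 95% interval of -0.080 to 0.093, and its sign turned with library size scaling (log2 -0.033) and when single libraries were left out. The opposite strand carries Dennd2d, which overlaps 771 bases of Cept1 and had 73 to 135 counts per library, against 1032 to 1416 for Cept1. In GENCODE M21, 21.9% of the 50-base words of Cept1 occur in Dennd2d, read on either strand. Whether reads were counted by strand is not known here, so how reads of such overlaps were assigned is uncertain.

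Chpt1 (ENSMUSG00000060002, chromosome 10 from 88288607 to 88339935, minus strand), the choline phosphotransferase of the Golgi, had 32.4, 29.0, 28.6, 27.0 and 28.6 CPM in Mttp_flox_CM. In Mttp_KO_CM it had 34.2, 31.4, 32.0, 31.8 and 28.4 CPM, so the groups overlapped. The log2 change of 0.12 (SE 0.057) did not pass (edgeR adjusted p = 0.11). It passed without replicate 1 of Mttp_flox_CM (log2 0.16, edgeR adjusted p = 0.036) and without the unnumbered library of Mttp_KO_CM (log2 0.15, adjusted p = 0.042). Sycp3, within Chpt1 on the other strand, had at most 5 counts.

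Selenoi, the ethanolamine phosphotransferase, is not one of the 10 but works at the same step, and it rose from 62.8 ± 3.75 to 71.9 ± 2.14 CPM (edgeR adjusted p = 8.1e-04, log2 0.20, SE 0.043, n = 5). Selenoi over Cept1 lay between 0.181 and 0.202 in Mttp_flox_CM and between 0.207 and 0.231 in Mttp_KO_CM, with no overlap. Cept1 over Chpt1 overlapped between the groups (7.21 ± 0.618 and 6.65 ± 0.315). Cept1 held 75.2 ± 0.732% of the FPKM of the 3 phosphotransferases in Mttp_flox_CM and 73.1 ± 0.744% in Mttp_KO_CM. These shares carry the doubt about overlapping reads given for Cept1.

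Etnk1 (ENSMUSG00000030275, chromosome 6 from 143112947 to 143178033, plus strand), an ethanolamine kinase, had 149, 147, 148, 151 and 155 CPM in Mttp_flox_CM. In Mttp_KO_CM it had 149.5, 155, 164, 154 and 157 CPM. The ranges overlapped, and the log2 change of 0.057 (edgeR adjusted p = 0.17, SE 0.031) had a 95% interval of -0.0079 to 0.12. The second ethanolamine kinase, Etnk2, had a log2 change of 0.060 (SE 0.098, adjusted p = 0.68). The overlapping gene 1700126G02Rik on the other strand of Etnk1 had 2 to 11 counts. Etnk1 held 82.9 ± 1.90% of the FPKM of both in Mttp_flox_CM and 82.9 ± 1.16% in Mttp_KO_CM.

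Pisd (ENSMUSG00000023452, chromosome 5 from 32893645 to 32942990, minus strand) encodes the mitochondrial decarboxylase that turns phosphatidylserine into phosphatidylethanolamine. It had 18.1, 16.7, 16.8, 18.9 and 21.1 CPM in Mttp_flox_CM and 20.5, 17.3, 19.9, 19.4 and 18.4 CPM in Mttp_KO_CM. The groups overlapped (edgeR adjusted p = 0.55, log2 0.062, SE 0.072), and the 95% interval was -0.088 to 0.21. As with Chkb, a second gene model on the same strand, Gm20671, covers 98.1% of the span of Pisd and is listed at 0 in all 10 libraries. In GENCODE M21, 17.9% of the 50-base words of Pisd occur in Gm20671, 3.43% in the pseudogene Pisd-ps2 and 2.64% in Pisd-ps1, so the counts of Pisd are uncertain as well.

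Pemt (ENSMUSG00000000301, chromosome 11 from 59861440 to 59937315, minus strand), the methyltransferase of the liver route, had 12.7, 12.7, 13.0, 11.5 and 16.1 CPM in Mttp_flox_CM. In Mttp_KO_CM it had 14.8, 14.5, 14.5, 16.2 and 15.1 CPM. The unnumbered library of Mttp_flox_CM lay within the range of Mttp_KO_CM, and the other 4 lay below all of Mttp_KO_CM. The log2 change was 0.19 (edgeR adjusted p = 0.084, SE 0.084), with a 95% interval of 0.015 to 0.36. Pemt passed without that library (log2 0.27, edgeR adjusted p = 0.011) and without both unnumbered libraries (log2 0.26, adjusted p = 0.019). It also passed with a replicate block over the 4 numbered pairs (log2 0.26, edgeR adjusted p = 0.029).

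Lpcat3 (ENSMUSG00000004270, chromosome 6 from 124639990 to 124681381, plus strand) encodes the acyltransferase that attaches polyunsaturated fatty acids to lysophosphatidylcholine, and it is a known target of the liver X receptors. It had 239, 245, 234, 230 and 226 CPM in Mttp_flox_CM. Libraries of Mttp_KO_CM had 404, 391, 362, 362 and 380 CPM. The lowest Mttp_KO_CM library lay far above the highest Mttp_flox_CM library. Lpcat3 rose by 0.69 on the log2 scale (edgeR adjusted p = 7.6e-15, SE 0.032, n = 5), with a 95% interval of 0.63 to 0.76. Over the 18 alternatives its log2 change ran from 0.65 to 0.71, and every one passed. Emg1 overlaps 334 bases of Lpcat3 on the other strand and had 763 to 967 counts per library, against 3316 to 6143 for Lpcat3. The plot of CPM for all 10 enzymes shows Lpcat3 apart from the rest.

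**Figure D2:**
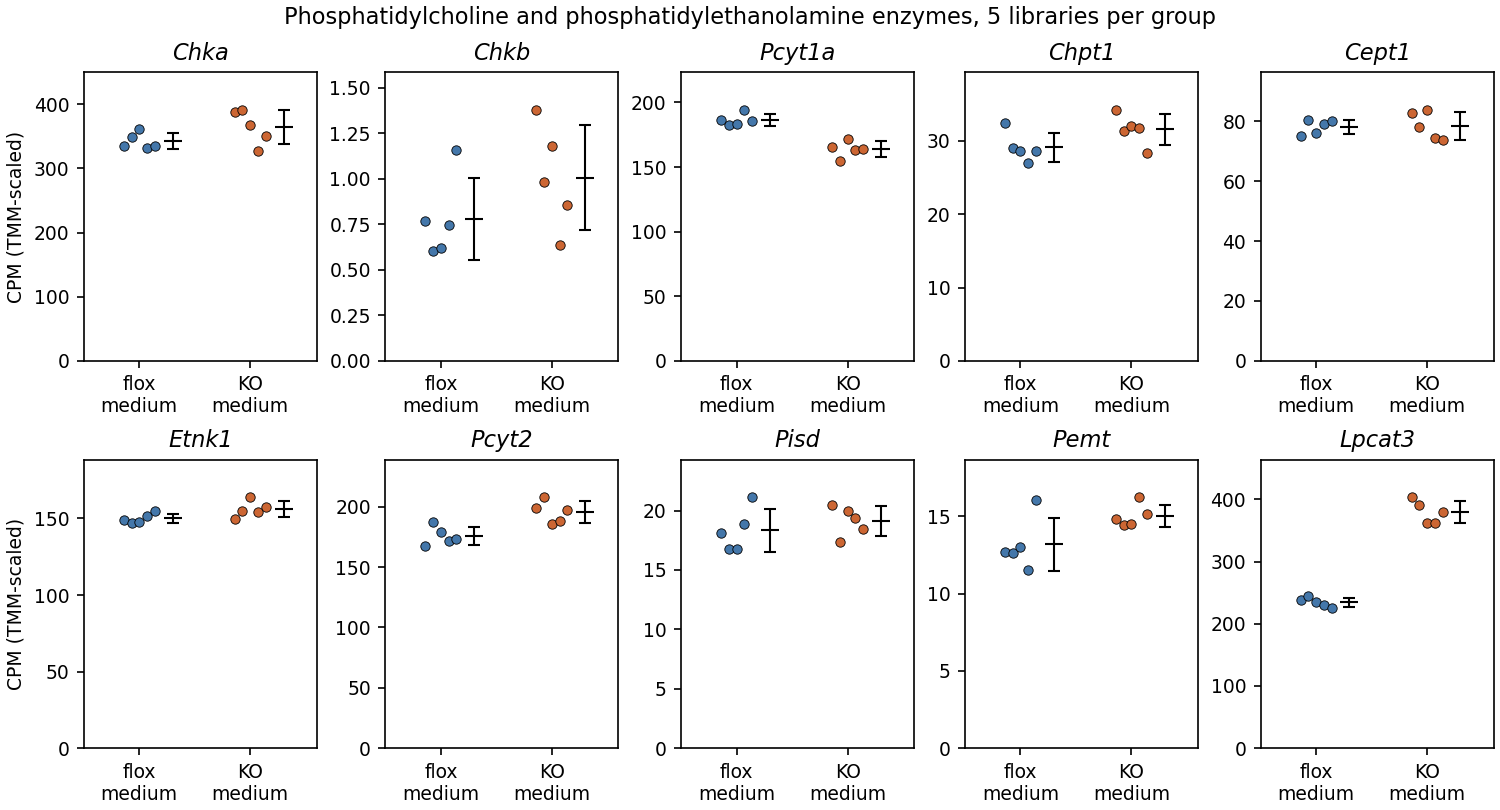
TMM-scaled CPM of the 10 enzymes, 1 panel per gene with its own axis from 0, 1 point per library in flox medium (blue) and knockout medium (orange). Bars give mean ± SD (n = 5). Points of the groups are separate for Lpcat3 (higher) and Pcyt1a (lower) and overlap for the other 8 genes.

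The other acyltransferases of lysophospholipids did not all move the same way as Lpcat3. Of 8 listed, 7 were tested, 2 rose (Lpgat1 and Lclat1) and Lpcat1 fell. Lpcat1, best known for saturated phosphatidylcholine in lung surfactant, had 12.1, 13.7, 14.5, 10.2 and 10.8 CPM in Mttp_flox_CM and 7.36, 7.09, 7.10, 7.90 and 8.06 CPM in Mttp_KO_CM. Its groups were separate, and it fell by 0.71 on the log2 scale (edgeR adjusted p = 6.0e-06, SE 0.10). It moved in the direction of most of the hepatocyte, endothelial, stellate and macrophage markers given above, and their part in its fall was not tested. Lpgat1, which acylates lysophosphatidylglycerol and other lysophospholipids, rose by 0.19 (SE 0.027, adjusted p = 2.4e-06).

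Among the 4 lysophosphatidylcholine acyltransferases, Lpcat3 held 94.3 ± 0.486% of the summed FPKM in Mttp_flox_CM and 97.4 ± 0.379% in Mttp_KO_CM. Lpcat3 over Lpcat1 was 27.9, 25.3, 22.9, 32.0 and 29.6 in Mttp_flox_CM. In Mttp_KO_CM it was 77.7, 78.2, 72.3, 64.9 and 66.8, far above that range. The plot of FPKM ratios sets this ratio beside those of the cytidylyl transferases and phosphotransferases.

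**Figure D3:**
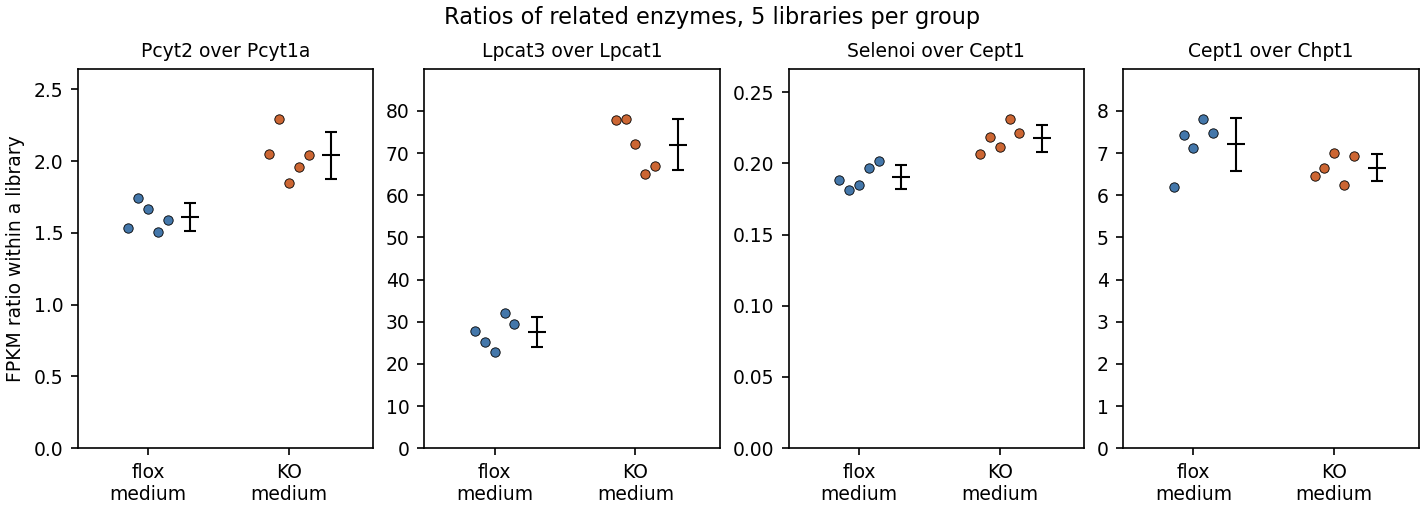
FPKM ratios of related enzymes within each library, 1 point per library, with mean ± SD (n = 5) beside the points and axes from 0. Pcyt2 over Pcyt1a, Lpcat3 over Lpcat1 and Selenoi over Cept1 are separate between the media, while Cept1 over Chpt1 overlaps.

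Further genes of phospholipid metabolism were read from 11 lists, 86 genes in all besides the 10 enzymes. Of 80 tested, 27 rose and 13 fell, so that 40 of 80 were called, where 36.4% of all genes tested were, and their median log2 change was 0.049. Up to 2 genes per list with the smallest p-values are named.

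Choline enters hepatocytes by transporters, and 2 of the 6 tested rose while 1 fell. The choline transporter gene Slc44a1 rose from 79.95 ± 2.62 to 92.2 ± 2.68 CPM (edgeR adjusted p = 7.8e-05, log2 0.21, SE 0.037, n = 5). Slc44a2, a related transporter, fell from 19.5 ± 1.43 to 14.3 ± 0.591 CPM (edgeR adjusted p = 1.3e-05, log2 -0.45, SE 0.069). Choline that is not built into lipid is oxidized to betaine, and Bhmt, which uses betaine to make methionine, was the only one of 6 genes of choline oxidation to pass. Bhmt had 130, 131, 122, 148 and 153 CPM in Mttp_flox_CM and 71.5, 74.7, 103, 105 and 104 CPM in Mttp_KO_CM. All Mttp_KO_CM libraries lay below all Mttp_flox_CM libraries, and replicates 1 and 2 of Mttp_KO_CM were the lowest. Bhmt fell by 0.58 on the log2 scale (edgeR adjusted p = 5.7e-06, SE 0.085), in libraries where 10 of 12 hepatocyte markers fell and 2 rose, a relation that was not tested. Chdh, the choline dehydrogenase, had a log2 change of 0.10 (SE 0.064, adjusted p = 0.23).

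Pemt uses S-adenosylmethionine as its methyl donor. Of 6 genes of its supply and removal, Mat2a, a methionine adenosyltransferase, rose from 315 ± 5.18 to 408 ± 16.6 CPM (edgeR adjusted p = 1.4e-10, log2 0.37, SE 0.029, n = 5), and no other passed. Ahcy, which clears the S-adenosylhomocysteine that methylation leaves, had a log2 change of 0.052 (SE 0.035, adjusted p = 0.26).

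Pisd depends on phosphatidylserine that is made in the endoplasmic reticulum and carried into mitochondria, and of 6 genes tested 2 rose and 1 fell. Prelid3b, of the family that shuttles lipid across the mitochondrial intermembrane space, rose by 0.22 (edgeR adjusted p = 1.1e-04, SE 0.040). Osbpl5, a phosphatidylserine carrier at membrane contacts, fell by 0.23 (edgeR adjusted p = 0.011, SE 0.070). It did not pass under 2 of 18 alternatives, 1 of them without both unnumbered libraries (log2 -0.18, edgeR adjusted p = 0.068).

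Of 7 genes for the transfer and secretion of phosphatidylcholine, 3 rose and none fell. These 3 calls are 42.9% of the list, near the 36.4% called among all genes tested. Pctp, the phosphatidylcholine transfer protein, rose from 38.6 ± 3.06 to 55.1 ± 1.77 CPM (edgeR adjusted p = 7.1e-09, log2 0.51, SE 0.049, n = 5). Stard7, which carries phosphatidylcholine to mitochondria, rose by 0.14 (edgeR adjusted p = 0.033, SE 0.051), but it did not pass under 9 of 18 alternatives. Without replicate 1 of Mttp_KO_CM, Stard7 had a log2 change of 0.10 (adjusted p = 0.12).

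Of 20 genes of phospholipid and choline ester breakdown, 6 rose and 5 fell. Gpcpd1 encodes a phosphodiesterase that frees choline from glycerophosphocholine. It had 55.7, 58.5, 58.7, 54.4 and 55.8 CPM in Mttp_flox_CM and 96.8, 95.6, 87.2, 94.0 and 100.4 CPM in Mttp_KO_CM. All libraries of knockout medium lay above those of flox medium. The log2 change of Gpcpd1 was 0.74 (edgeR adjusted p = 2.9e-13, SE 0.042), close in size to Lpcat3. Pnpla8, a phospholipase of mitochondria and peroxisomes, rose from 92.0 ± 2.88 to 116 ± 2.25 CPM (edgeR adjusted p = 1.4e-08, log2 0.34, SE 0.034, n = 5).

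Diacylglycerol is the shared substrate of the phosphotransferases and of triglyceride synthesis, and 2 of 5 genes of its supply and use rose and 2 fell. Dgat2, which turns diacylglycerol into triglyceride, rose from 175 ± 6.89 to 288 ± 11.8 CPM (edgeR adjusted p = 6.5e-15, log2 0.72, SE 0.033, n = 5). The ratio of Lpcat3 to Dgat2 in FPKM overlapped between the groups (1.26 ± 0.0506 and 1.24 ± 0.0141). Lpin2, a phosphatidate phosphatase that makes diacylglycerol, rose by 0.19 (edgeR adjusted p = 7.7e-07, SE 0.024).

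**Figure D4:**
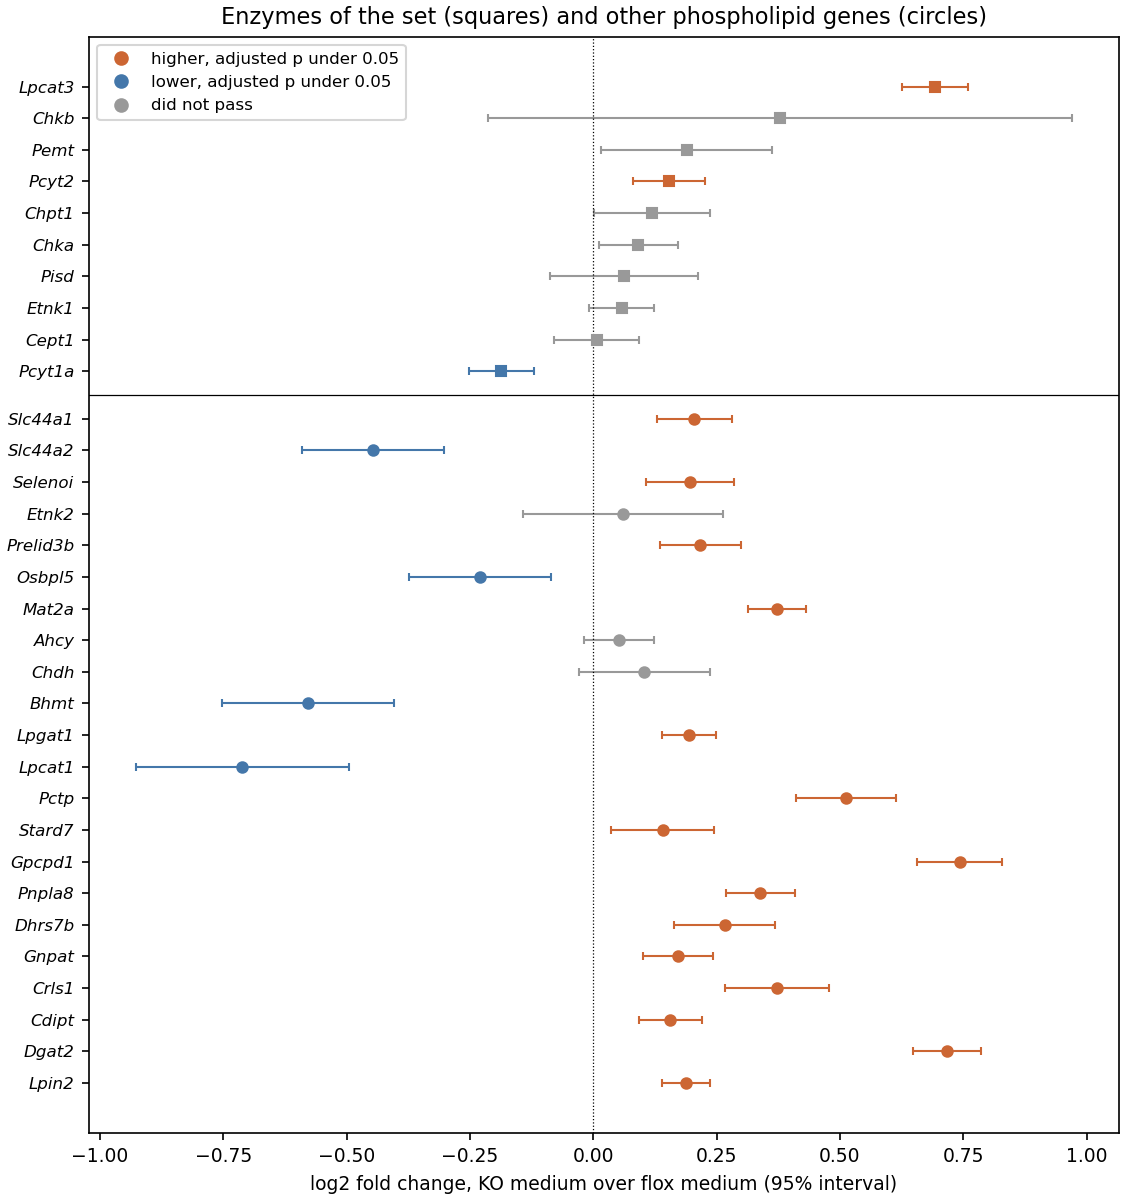
Log2 fold changes (knockout over flox medium) with 95% intervals from edgeR for the 10 enzymes (squares, above the line) and the named genes of the other lists (circles). Orange and blue mark genes higher or lower at an adjusted p under 0.05 and grey those that did not pass. Lpcat3, Gpcpd1 and Dgat2 have the highest values, near 0.7, and Lpcat1 the lowest.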

How the data were processed

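RNA of 10 libraries of wild-type mouse hepatocytes was analysed, 5 per group. The authors deposited raw counts per gene, made with HISAT2 2.0.5 and featureCounts 1.5.0-p3 on build GRCm39, per the submitters' processing notes, and FPKM values for the same libraries. The sources used here do not give strand or multi-mapping settings. The labels matched 8 columns, and 2 (1 per group) were placed by their letter only.

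Counts were tested in R 4.3.3 with edgeR 4.0.16 (filterByExpr with minimum count 10 and total 15, TMM, glmQLFit, glmQLFTest), which kept 14183 of 56748 genes and 99.8% of counts. All 10 enzymes passed the filter. The 95% intervals use the fit's t distribution. Alternatives used library size scaling, other filters, DESeq2 1.42.0, limma 3.58.1 on log2 of FPKM plus 1 or 0.1, left-out libraries and a replicate block. The enzymes and lists were chosen with earlier results of these data known. Named genes were all 10 enzymes and up to 2 genes per other list by smallest p, plus genes that overlap an enzyme. Lclat1 and Pcyt1b were named after their values were seen.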

Additional observations from a re-analysis of the deposited data

How the results depend on the processing

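The count of enzymes that rose was 2 as reported and 2 or 3 under 17 of 18 alternatives, and the count that fell was 1 under all of them. With a replicate block over the 4 numbered pairs, 4 enzymes rose (Lpcat3, Pcyt2, Pemt and Chka). Whether the numbers pair the libraries was not settled. Deviations from the group means correlated between -0.0089 and 0.075 for libraries of the same number. For all other pairs of libraries they correlated between -0.043 and 0.060. Correlations this small over all genes cannot exclude a shared preparation. The same 8 libraries without the block gave 3. Counts over all genes (1982 to 2585 higher, 2307 to 3217 lower) and over the other phospholipid genes (22 to 27 higher, 11 to 14 lower) stayed within 1.5 times of the reported ones. Pcyt1a, Pcyt2 and Lpcat3 kept direction and call throughout. Cept1 changed sign with library size scaling (log2 -0.033) and when single libraries were left out (log2 -0.018 to 0.027, below 0 without replicate 1 (-0.011) or 3 (-0.0079) of Mttp_flox_CM or replicate 1 (-0.013) or 3 (-0.018) of Mttp_KO_CM), and no alternative took it past the threshold; the cause was not tested. Chkb had the fewest counts of the 10 enzymes, at most 21 per library. Whether depth or reads shared with Gm44502 set this low number is not known.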

Other observations

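Ether phospholipids and acidic phospholipids are made beside phosphatidylcholine, and their genes are set here against all genes tested, of which 18.2% rose and 18.1% fell. Of 7 genes of ether phospholipid synthesis 4 rose and 1, Far1, fell. Gnpat, the peroxisomal acyltransferase that opens the route, rose from 74.3 ± 1.19 to 83.7 ± 0.808 CPM (edgeR adjusted p = 2.8e-04, log2 0.17, SE 0.034, n = 5), and Dhrs7b, a reductase that acts later in it, by 0.27 (SE 0.049). Of 8 genes of phosphatidylinositol, phosphatidylglycerol and cardiolipin synthesis 4 rose and 1, Cds1, fell. Crls1, the cardiolipin synthase of mitochondria, rose from 40.7 ± 1.72 to 52.6 ± 3.98 CPM (edgeR adjusted p = 2.1e-06, log2 0.37, SE 0.051, n = 5), and Cdipt, which makes phosphatidylinositol, by 0.16 (SE 0.031). Far1 and Cds1 were named after their values were seen.

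The pseudogene Pisd-ps1 on chromosome 11 was listed at a level like that of Pisd, 4.13 ± 0.429 FPKM in Mttp_flox_CM and 3.19 ± 0.188 in Mttp_KO_CM (n = 5). It fell by 0.38 on the log2 scale (edgeR adjusted p = 0.0010, SE 0.085), with no overlap between the groups, while Pisd did not pass. The counts of Pisd are uncertain, as said above, so how the levels of the gene and the pseudogene compare is uncertain too. Phospho1, a phosphatase of phosphocholine and phosphoethanolamine, had the highest log2 change of the breakdown list (1.34, SE 0.24, edgeR adjusted p = 8.1e-05) at 8 to 37 counts per library. Etnppl, which degrades phosphoethanolamine, fell by 0.73 (edgeR adjusted p = 9.6e-04, SE 0.16). These 3 genes were chosen after their values were seen.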
